A study of Homo sapiens with 60 samples.

Results

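The APOBEC3 genes encode 7 cytidine deaminases, APOBEC3A, B, C, D, F, G and H, and were described here in lung cancer cell lines with EGFR mutations exposed to the EGFR inhibitor osimertinib. The 7 genes were listed by symbol and all were present among the 19712 genes of both deposited tables. They were chosen by the acute log2 fold change, because APOBEC3A had the largest acute rise in these data, so that the acute change of this family in PC9 and HCC827 is given as a description, without a test. RNA was sequenced from 60 bulk libraries of 4 established lines, PC9, HCC827, H1975 and HCC2935, each in 5 arms of 3 biological replicates. In the DMSO arm, parental cells kept without drug for 21 days received vehicle for 24 h. In the acute arm, cells of the same drug-free history received 500 nM osimertinib for 24 h. The drug-tolerant persister (DTP) arm held the cells that remained after 21 days in 500 nM osimertinib. The short washout arm was this persister population after a further 24 h without drug. The long washout arm was harvested when exponential growth had resumed, after 7 days in PC9, 3 days in H1975, 4 days in HCC827 and 10 days in HCC2935, so that its length differed between lines. No untreated arm was kept in parallel with the washout, and the persister arms had been in culture with drug while the DMSO arm had not.

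APOBEC3 enzymes convert cytosine to uracil in single-stranded DNA and are known for blocking retroviruses and mobile elements. APOBEC3A and APOBEC3B can reach nuclear DNA, and their preferred TC context marks a class of somatic mutations that is common in lung tumours. APOBEC3D, F, G and H are the members best known for restricting HIV, whose Vif protein directs them to degradation. APOBEC3A is known to respond to interferon and NF-kB signalling, and APOBEC3B is repressed by the DREAM complex and E2F factors and can be induced by NF-kB. Uracil left in DNA is removed by the glycosylase UNG, the start of base excision repair.

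The 7 genes stand side by side on the plus strand of chromosome 22 (hg38, GENCODE annotation), between positions 38952741 and 39104067, a stretch of 151.3 kb. APOBEC3A lies at chr22:38952741-38992778, APOBEC3B at chr22:38982347-38992804, APOBEC3C at chr22:39014083-39020352 and APOBEC3D at chr22:39021113-39033276. APOBEC3F lies at chr22:39040604-39053910, APOBEC3G at chr22:39077005-39087743 and APOBEC3H at chr22:39097224-39104067. An annotated APOBEC3A transcript runs into APOBEC3B, and the pair shares 348 exonic bases. APOBEC3D shares 2104 of its 2528 exonic bases with a readthrough gene, AL022318.4, and the antisense gene APOBEC3B-AS1 overlaps exons of both APOBEC3A and APOBEC3B. The members also resemble each other in sequence. Among the distinct 31-base windows of their annotated protein-coding transcripts, without the one that runs on into APOBEC3B, 37.0% of those of APOBEC3B, 31.1% of APOBEC3F, 27.0% of APOBEC3A, 25.7% of APOBEC3G, 22.5% of APOBEC3D and 6.35% of APOBEC3C were also found in another member, against 0% for APOBEC3H. Over 150-base windows, the length of 1 read, these shares were 6.08% or less. Reads that fit several members were divided by estimation in the deposited counts, so small values of APOBEC3A, D and G beside an abundant relative are uncertain.

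Total counts ran from 17.7 M to 49.1 M per library, and were lower in HCC827 (17.7 M to 25.1 M) and HCC2935 (18.6 M to 25.6 M) than in H1975 and PC9 (34.7 M to 49.1 M). Each library was compared with the arm means of its own line, leaving itself out. All 24 DMSO and acute libraries lay nearest to the mean of their own arm. This held for only 1 of 9 DTP and washout libraries in HCC827 and 5 of 9 in H1975, against 8 of 9 in PC9 and 8 of 9 in HCC2935. The PC9 library that stood apart was long washout replicate 3, which lay nearest to the short washout arm, and in HCC2935 it was long washout replicate 1. The cells carried epithelial keratins, with a summed level of 8 epithelial markers between 2357 and 16436 TPM (a level scaled by transcript length and library size). KRT7, KRT8, KRT18 and KRT19 held at least 394 TPM in every library. Others of the list were lower in some libraries, with EPCAM down to 18.1, CDH1 to 1.28 and NAPSA to 0.264 TPM. Summed leukocyte markers (15 genes) ranged from 2.49 to 24.1 TPM, and CD2, CD3D, CD3E, MS4A1, TYROBP, FCER1G, CD163 and SPI1 were below 1 CPM (counts scaled to the size of the library) in every library. Others of the list were not, and among them CSF1R reached 14.1 TPM and ITGAM 11.2 TPM. In every line 8 to 10 of 10 ERK feedback genes and 12 of 12 proliferation markers fell in the acute arm. Values below are CPM on a common scale over all libraries, and changes are log2 fold changes with their standard error (SE) from edgeR's quasi-likelihood test, called at an adjusted p under 0.05 over all genes tested. In such bulk RNA, fewer cells that express a gene and less RNA of it per cell cannot be told apart.

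Under DMSO, APOBEC3B and APOBEC3C made up most of the family in all 4 lines. The summed level of the 7 members was 155 ± 14.9 TPM in PC9, 122 ± 5.06 in HCC2935, 86.4 ± 3.48 in H1975 and 43.8 ± 8.97 in HCC827 (SD, n = 3 each). APOBEC3B took 61.2% of this sum in PC9, 64.2% in HCC2935, 54.9% in HCC827 and 37.7% in H1975, and APOBEC3C took 25.1% to 38.9%. Each of the 5 members that could be tested differed between the lines, where 91.2% of all genes did: APOBEC3B (adjusted p = 1.43e-07), APOBEC3C (1.64e-08), APOBEC3D (0.00277), APOBEC3F (0.00149) and APOBEC3G (3.66e-07), by edgeR. APOBEC3G was the highest in H1975. Its libraries there held 13.4 to 17.7 CPM, against 1.54 to 3.99 in HCC2935, 0.618 to 1.41 in PC9 and 0.439 to 1.13 in HCC827. APOBEC3H, a single-domain enzyme with unstable and stable human forms, stayed at or below 1.19 CPM in all 60 libraries.

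**Figure D1:**
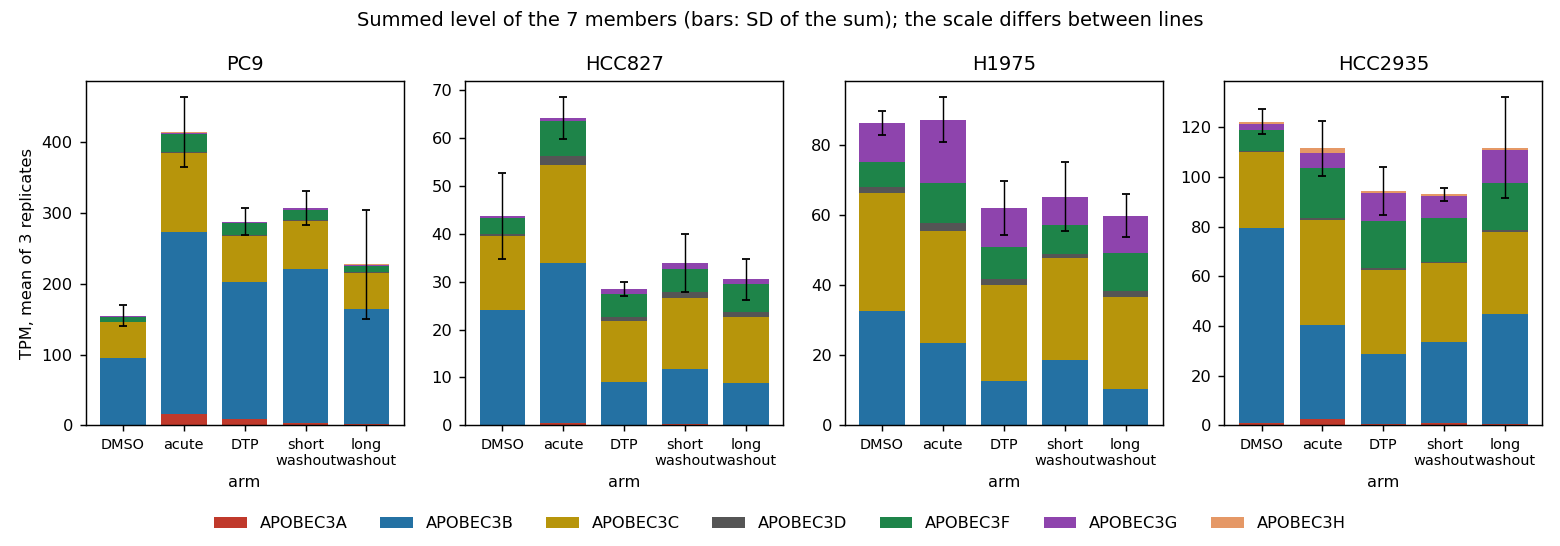
Stacked bars of the level of the 7 members in TPM (mean of 3 replicates) in the 5 arms of each line, with the SD of the sum as an error bar and a separate scale for each line. The sum rose from 155 to 414 TPM between DMSO and acute in PC9, while the APOBEC3B segment of HCC2935 shrank from 64.2% to 34.0% of the bar.

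APOBEC3A, a highly active single-domain deaminase, was close to absent under DMSO and high in drug-treated PC9. In PC9 its DMSO libraries held 0, 0.119 and 0.206 CPM. The acute libraries held 17.8, 14.2 and 16.2 CPM, or 570 to 622 counts each. This was the difference that chose the family (log2 fold change 7.13, SE 0.40). DTP libraries held 9.93, 7.25 and 5.59 CPM, below every acute library and above every DMSO library. In the acute arm APOBEC3A was 3.78% of the family's summed TPM, still far behind APOBEC3B. The PC9 leukocyte marker sum was 3.97 to 4.80 TPM under DMSO, 10.0 to 12.8 in the acute arm and 13.1 to 13.7 in DTPs. The 8 markers named above stayed below 1 CPM in those libraries too, but 3 of the 4 leukocyte markers that could be tested were called higher in the PC9 acute arm. Their part in the APOBEC3A values was not tested.

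In PC9, APOBEC3A was lower 24 h after drug withdrawal. The short washout libraries held 2.35, 4.41 and 2.97 CPM, all below the DTP libraries, and the fall was called (log2 fold change -1.23, SE 0.28, adjusted p = 0.0144, edgeR). APOBEC3A was the 1 of 6 tested members called in this comparison, in which 22.2% of genes were called (10.1% lower). The call was kept without any single replicate and lost when all 15 PC9 libraries shared an estimate of the spread (adjusted p = 0.354). After the long washout the 3 libraries disagreed, at 0.374, 0.0519 and 5.51 CPM, the last being the library that stood apart. The fitted difference from DTPs was -1.92 (SE 1.10), and without that library it was -5.16 (SE 0.58). Both are given without a test, because APOBEC3A passed the filter on low counts there through the DTP libraries (248 to 339 counts), where it is high. Whether the 7-day arm had returned to the DMSO level could not be tested, as APOBEC3A did not pass this filter between long washout and DMSO.

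In HCC2935, APOBEC3A was already present under DMSO, at 0.329, 0.279 and 1.34 CPM. The acute libraries held 1.49, 2.19 and 2.27 CPM, each above the DMSO libraries. The fitted difference was 1.59 (SE 0.60). With the replicate number as a block it was 1.82 (SE 0.53), and without DMSO replicate 3 it was 2.69. HCC2935 DTPs, at 0.67, 0.428 and 0.141 CPM, lay below all acute libraries. The fitted difference was -2.24 (SE 0.54) and is given without a test, because APOBEC3A passed the filter on low counts in this line through the acute libraries (34.5 to 49.6 counts), where it is high, and did not pass it between DTP and DMSO. The acute comparison above is given without a test for the same reason. The short washout libraries, at 0.134 to 0.881 CPM, and the long washout libraries, at 0 to 0.655 CPM, overlapped the DTP libraries.

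In HCC827 and H1975, APOBEC3A stayed at or near the limit of counting and was not tested. HCC827 libraries held 0 to 0.0519 CPM under DMSO and 0.236 to 0.617 CPM in the acute arm. These acute values rested on 5.37 to 13.4 counts per library, against less than 1 count per DMSO library. After the short washout HCC827 held 0.109, 0.417 and 0.37 CPM, all above its DTP libraries (0.0462 to 0.102 CPM). In H1975 no library exceeded 0.114 CPM. Its 3 long washout libraries had 0 counts, which allows a level of up to 0.0727 CPM (3 counts) and covers counting error only. Over all 60 libraries APOBEC3A was at 0 in 10. In order of mean level the groups ran from PC9 acute (16.1 ± 1.79 CPM, SD, n = 3) through PC9 DTP (7.59 ± 2.19) and PC9 short washout (3.24 ± 1.06), none of which overlapped the next. From HCC2935 acute (1.99 ± 0.43) downward, neighbours in the order overlapped, apart from H1975 DTP and the H1975 long washout arm at 0.

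**Figure D2:**
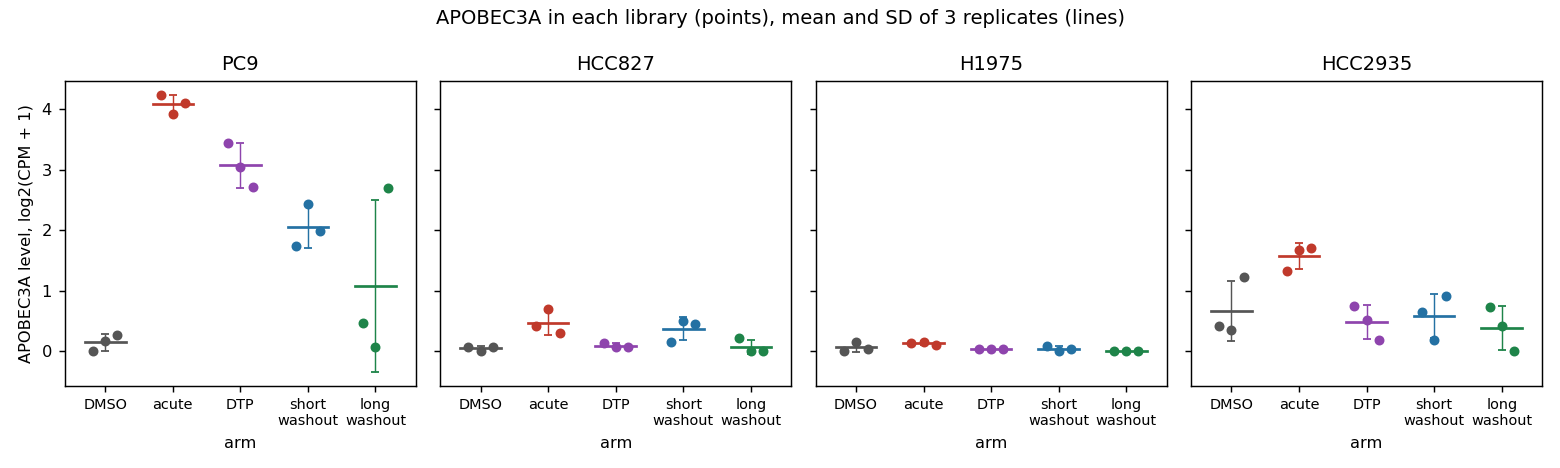
APOBEC3A as log2(CPM + 1) in every library (points), with the mean and SD of 3 replicates (lines), by line and arm. The PC9 acute libraries at 14.2 to 17.8 CPM lie above all others, the PC9 long washout libraries spread from 0.0519 to 5.51 CPM, and H1975 stays at the baseline.

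APOBEC3B, a nuclear enzyme with a pair of deaminase domains, was the most abundant member of PC9 and took opposite courses in the lines. In PC9 it held 101, 128 and 126 CPM under DMSO and 364, 270 and 334 CPM in the acute arm, a 2.71-fold difference with no overlap. PC9 DTPs held 203, 216 and 184 CPM. This lay above every DMSO library (log2 fold change 0.77, SE 0.10, adjusted p = 9.03e-05) and below every acute library (-0.67, SE 0.11, adjusted p = 0.00178). Against DMSO, APOBEC3B, D, F and G were called higher in PC9 DTPs and APOBEC3C was not. There 71.3% of genes were called (35.4% higher, 35.9% lower). Against the acute arm, APOBEC3B, C and F were called lower in PC9 DTPs and APOBEC3D and G were not. Of all genes, 39.8% were called in that comparison (20.6% lower). APOBEC3A, above DMSO and below the acute arm, is a description in both. The calls of APOBEC3B, D, F and G against DMSO held without any single replicate.

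In the other lines APOBEC3B fell. H1975 libraries went from 35.1, 34.1 and 32.7 CPM under DMSO to 22.8, 25.5 and 26.3 CPM in the acute arm, without overlap (log2 fold change -0.49, SE 0.10, adjusted p = 0.00556). In HCC2935 the fall was steeper, from 73.8, 71.2 and 71.3 CPM to 35, 33.7 and 36.1 CPM (-1.06, SE 0.09, adjusted p = 1.36e-05). HCC827 was the exception at 24 h, with 35.8, 19.7 and 24.8 CPM under DMSO and 37.8, 30.6 and 39.4 CPM in the acute arm, which overlapped. The acute fall of APOBEC3B in H1975 and HCC2935 differed in size (difference of log2 fold changes, HCC2935 minus H1975, -0.66, SE 0.12, adjusted p = 0.00437). It was the 1 of 7 members to do so, where 12.9% of genes did. APOBEC3A and APOBEC3H entered that fit through the HCC2935 acute libraries, and nothing is read from them there. The difference of APOBEC3B was not called when all 60 libraries shared the estimate of the spread (adjusted p = 0.236). Nor was its fall in H1975 itself with all 15 libraries of that line (adjusted p = 0.113).

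By day 21 APOBEC3B was below DMSO in all 3 of these lines. HCC827 DTPs held 11, 8.97 and 8.88 CPM (log2 fold change -1.44, SE 0.24, adjusted p = 0.00229), H1975 DTPs 11.7, 18.8 and 9.62 CPM (-1.35, SE 0.23, adjusted p = 0.00164) and HCC2935 DTPs 27.1, 16.4 and 26.4 CPM (-1.65, SE 0.17, adjusted p = 7.79e-05). Every DTP library of the 3 lines lay below every DMSO library of its line. In HCC827 and in H1975 it was the 1 of 5 tested members called, where 36.7% and 45.7% of genes were called (17.2% and 23.4% lower). A test added after these directions had been seen, of whether the change from DMSO to DTP differed between the 4 lines, gave an adjusted p of 2.69e-06 for APOBEC3B, where 61.6% of all genes were called. Relative to PC9, the change was lower by 2.22 in HCC827, 2.096 in H1975 and 2.38 in HCC2935 on the log2 scale. DTPs were also below the acute arm in HCC827 (-1.90, SE 0.16, adjusted p = 0.000454), H1975 (-0.92, SE 0.24, adjusted p = 0.023) and HCC2935 (-0.59, SE 0.18, adjusted p = 0.0213). The H1975 call was lost without any of 4 of its 6 libraries (acute replicates 2 and 3, DTP replicates 1 and 3, adjusted p = 0.0581 to 0.0763), and the HCC2935 call without acute replicate 1 or 3 (0.0554 and 0.0564).

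After the long washout APOBEC3B was still below DMSO in HCC827, H1975 and HCC2935. HCC827 long washout libraries held 8.43, 11.2 and 8.11 CPM, below all DMSO libraries (log2 fold change -1.52, SE 0.25, adjusted p = 0.0014). H1975 long washout libraries held 10, 13.2 and 10.2 CPM (-1.63, SE 0.13, adjusted p = 4.03e-05). HCC2935 libraries after 10 days were scattered, at 23.8, 57.3 and 32.6 CPM, and remained below DMSO (-0.91, SE 0.26, adjusted p = 0.0196), a call lost without replicate 3 (0.068). In PC9 the long washout libraries, at 156, 133 and 240 CPM, lay just above the DMSO libraries (0.60, SE 0.22, adjusted p = 0.069), and leaving out replicate 2 gave 0.77 (adjusted p = 0.0175). The share of genes called between long washout and DMSO was 30.6% in PC9, 39.7% in HCC827, 55% in H1975 and 39.9% in HCC2935, and the members called were 0 of 5, 1 of 5, 3 of 5 and 3 of 5. PC9 held the 5 highest group means of APOBEC3B, from 323 ± 47.8 CPM in the acute arm to 118 ± 14.7 under DMSO (SD, n = 3), with its short washout, DTP and long washout arms overlapping in between, and the HCC827 long washout arm was the lowest (9.25 ± 1.71).

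**Figure D3:**
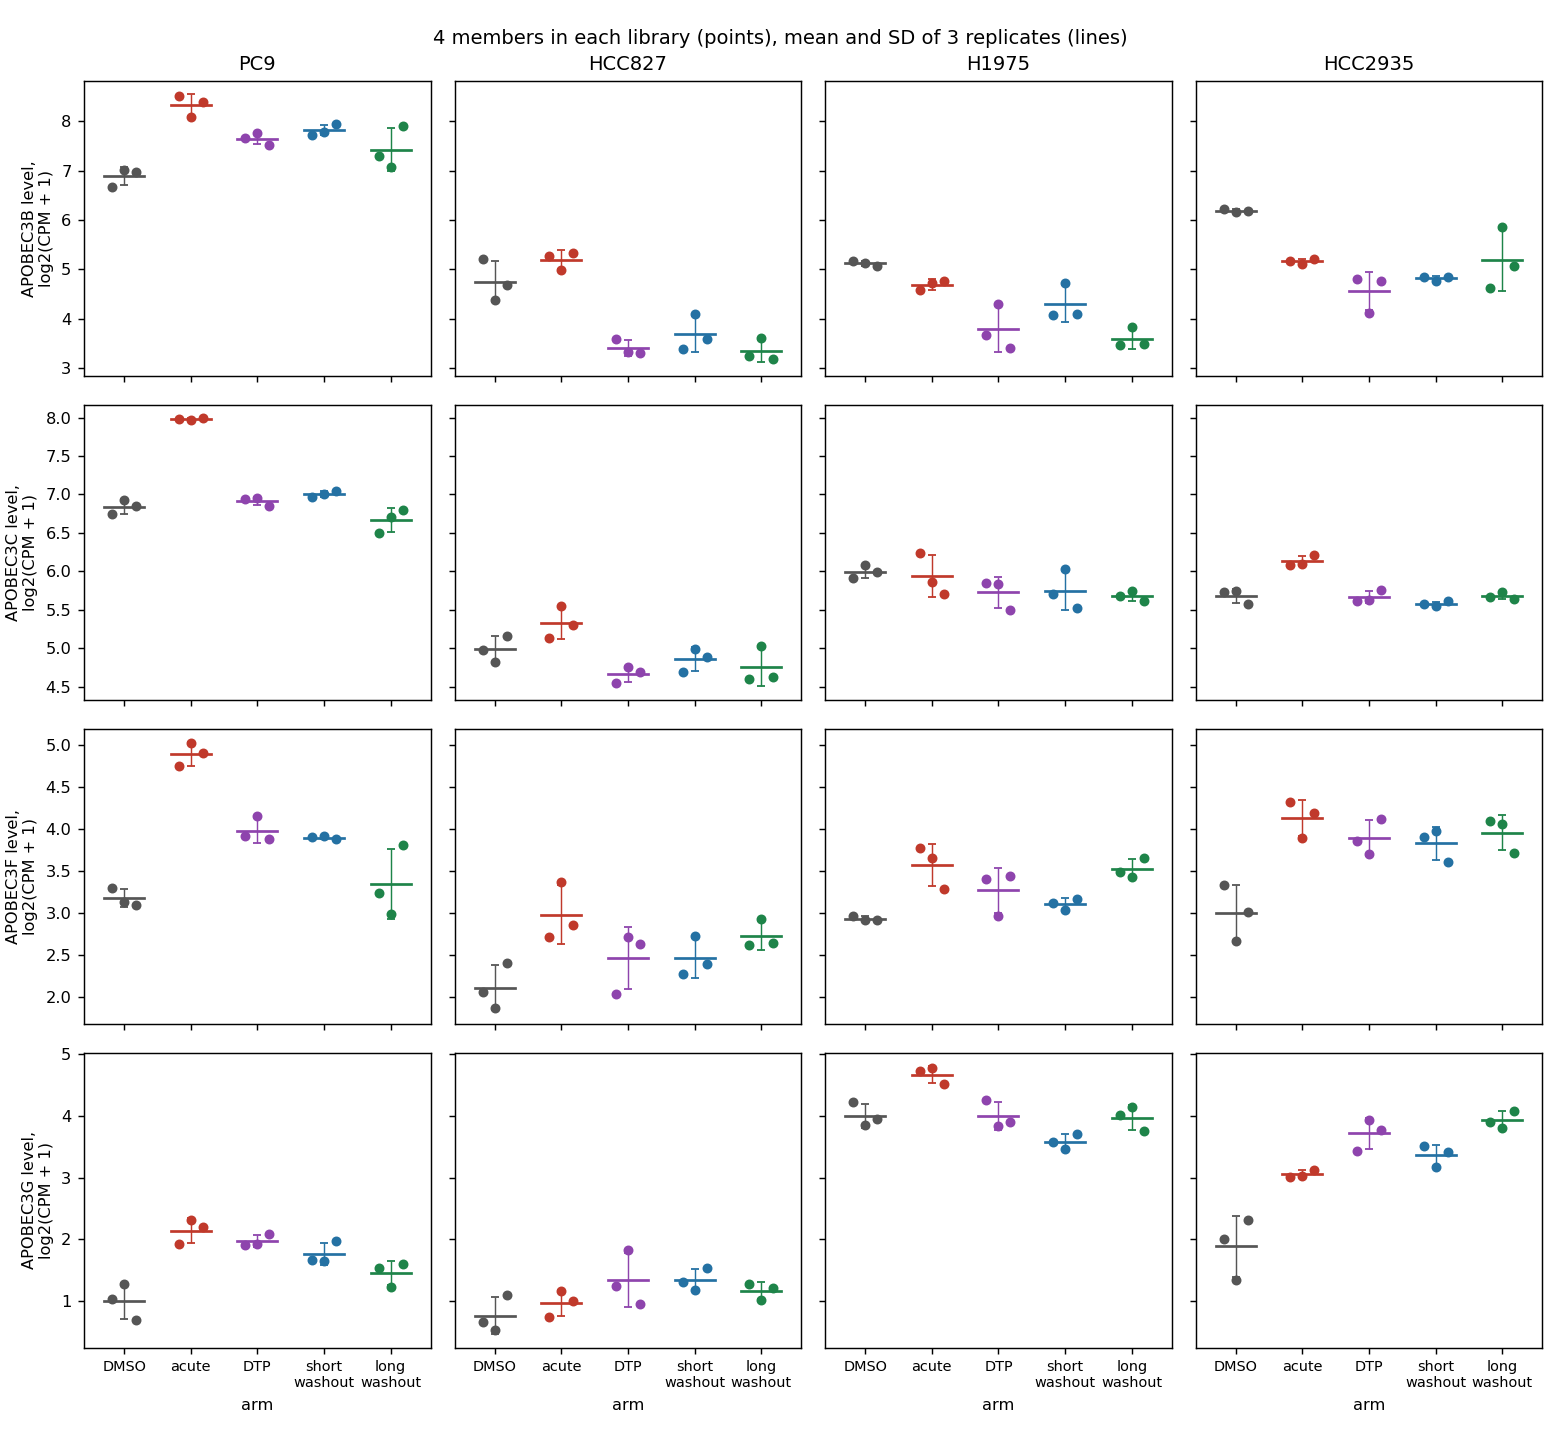
APOBEC3B, APOBEC3C, APOBEC3F and APOBEC3G as log2(CPM + 1) in every library (points), with the mean and SD of 3 replicates (lines), by line and arm. APOBEC3B of PC9 peaks in the acute arm at 270 to 364 CPM while the DTP libraries of HCC827, H1975 and HCC2935 lie below their DMSO libraries, and APOBEC3G of HCC2935 climbs from 1.54 to 3.99 CPM under DMSO to 9.84 to 14.3 CPM in DTPs.

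APOBEC3C, a widely expressed single-domain enzyme, had a peak in the acute arm that was gone in DTPs. PC9 libraries held 107, 121 and 114 CPM under DMSO, 251, 250 and 253 CPM in the acute arm and 122, 122 and 114 CPM in DTPs. The acute libraries of PC9 lay 2.20-fold above DMSO, without overlap, and the fall to DTPs was called (log2 fold change -1.05, SE 0.06, adjusted p = 9.91e-06). In HCC2935 it went from 46.8 to 52.4 CPM under DMSO to 67.0 to 72.9 CPM in the acute arm (0.44, SE 0.09, adjusted p = 0.00335). HCC2935 DTPs, at 47.9 to 53.1 CPM, were back below the acute libraries (-0.48, SE 0.10, adjusted p = 0.00298), although limma on log2 TPM did not call this step (adjusted p = 0.0521). HCC827 libraries held 27.3 to 34.8 CPM under DMSO and 34.1 to 46.0 CPM in the acute arm, which overlapped, and its DTPs held less than either, at 22.4 to 25.9 CPM (-0.70 against acute, SE 0.14, adjusted p = 0.00829). H1975 had no such peak. Its acute libraries spread from 51.3 to 74.5 CPM around the DMSO range of 59.1 to 66.7 CPM, and the long washout libraries, at 48.1 to 52.6 CPM, were the ones below DMSO (-0.34, SE 0.08, adjusted p = 0.00756).

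APOBEC3F, a 2-domain restriction factor, was higher than DMSO in the acute arm of all 4 lines. In PC9 it held 8.83, 7.72 and 7.56 CPM under DMSO and 25.9, 31.7 and 29.1 CPM in the acute arm, a log2 fold change of 1.84 (SE 0.12). In HCC827 the levels were 3.17, 2.64 and 4.26 CPM and 5.56, 9.36 and 6.23 CPM (1.05, SE 0.30), and in both lines the groups did not overlap. H1975 rose from 6.53 to 6.79 CPM to 8.76 to 12.7 CPM (0.69, SE 0.18, adjusted p = 0.0171). HCC2935 rose from 5.35 to 9.04 CPM to 13.9 to 19.0 CPM (1.21, SE 0.21, adjusted p = 0.00127). The H1975 call was lost without DMSO replicate 3 (adjusted p = 0.0577) or acute replicate 2 (0.0609). DTPs kept a raised level in PC9, at 13.8 to 16.8 CPM (0.89, SE 0.13, adjusted p = 0.000169 against DMSO), and in HCC2935, at 12 to 16.4 CPM (0.95, SE 0.22, adjusted p = 0.00555). After the long washout APOBEC3F was above DMSO in H1975 (9.75 to 11.6 CPM, 0.65, SE 0.13, adjusted p = 0.00398) and HCC2935 (12.1 to 16.2 CPM, 1.06, SE 0.22, adjusted p = 0.00429). In PC9, at 6.90 to 13.0 CPM, it overlapped DMSO.

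APOBEC3G, the member for which restriction of HIV was established, was called higher in the acute arm of H1975 and HCC2935, and in HCC827 its acute libraries (0.667 to 1.23 CPM) overlapped the DMSO libraries (0.439 to 1.13 CPM). In H1975 it held 17.7, 13.4 and 14.4 CPM under DMSO and 25.5, 26.3 and 21.9 CPM in the acute arm (log2 fold change 0.66, SE 0.15, adjusted p = 0.00912). H1975 DTPs were back at 18.2, 13.3 and 13.9 CPM (-0.72 against acute, SE 0.16, adjusted p = 0.0125), a fall not called without acute replicate 2 (0.0571). HCC2935 took another course. There the libraries went from 3, 1.54 and 3.99 CPM under DMSO to 7.07, 7.14 and 7.72 CPM in the acute arm (1.34, SE 0.32, adjusted p = 0.00703) and on to 9.84, 14.3 and 12.7 CPM in DTPs (0.74 against acute, SE 0.19, adjusted p = 0.0103). Against DMSO, HCC2935 DTPs lay 4.27-fold higher (2.09, SE 0.32, adjusted p = 0.000644). After 10 days of washout HCC2935 held 14, 13 and 16 CPM, a 5.10-fold difference from DMSO (2.35, SE 0.30, adjusted p = 0.000316).

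PC9 carried little APOBEC3G, at 0.618 to 1.41 CPM under DMSO, 2.77 to 3.94 CPM in the acute arm and 2.75 to 3.24 CPM in DTPs. Its DTPs exceeded DMSO (log2 fold change 1.51, SE 0.33, adjusted p = 0.00221). HCC827 DTPs held 0.925 to 2.54 CPM and overlapped its DMSO libraries (1.19, SE 0.57, adjusted p = 0.138). In the added test, the DTP change of APOBEC3G differed between the 4 lines (adjusted p = 0.00432). It was lower than that of PC9 by 1.495 in H1975 and higher by 0.62 in HCC2935 on the log2 scale.

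APOBEC3D and APOBEC3H were low and their values scattered. APOBEC3D, a further Vif-sensitive restriction factor, held 0.527 to 1.12 CPM under DMSO, 1.68 to 2.49 CPM in the acute arm and 1.35 to 3.62 CPM in DTPs of PC9, where the DTPs were called higher than DMSO (log2 fold change 1.54, SE 0.43, adjusted p = 0.00926). In HCC827 it went from 0.293 to 0.817 CPM to 2.00 to 2.60 CPM in the acute arm, without overlap (2.11, SE 0.47). In H1975 it held 0.962 to 3.34 CPM under DMSO and 1.75 to 3.68 CPM in the acute arm, and in HCC2935 no arm exceeded 1.64 CPM. APOBEC3H was at 0 in 18 of 60 libraries. It was highest in HCC2935, at 0.164 to 0.649 CPM under DMSO and 0.454 to 1.19 CPM in the acute arm, which overlapped (1.18, SE 0.64). This value is given without a test. APOBEC3H passed the filter on low counts in this line through the acute libraries (10.2 to 26.8 counts), where it is high.

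Counted per comparison, 6 of 7 tested members were called higher in the PC9 acute arm, where 68.5% of genes were called (34.4% higher), and 2 of 5 in HCC827, where 42.3% were (20.2% higher). Nothing is read from these 2 counts, since they come from the contrasts that chose the family. In H1975, 2 of 5 members were called higher and 1 lower, where 44.9% of genes were called (21.2% higher, 23.7% lower). In HCC2935, 3 of 7 were called higher and 1 lower, where 47.1% of genes were (22% higher, 25.1% lower). The 7 of this line include APOBEC3A and APOBEC3H, whose values are descriptions. In HCC2935 DTPs 2 of 5 were called higher and 1 lower against DMSO, where 52.5% of genes were (25.3% higher, 27.2% lower). DTPs against acute gave 2 of 5 lower in HCC827 (13.8% of genes), 2 of 5 lower in H1975 (14.9%), and 3 lower (APOBEC3A among them, as a description) and 1 higher of 7 in HCC2935 (42.4% of genes, 20.4% lower and 22% higher). Comparisons with DMSO within a line share the same 3 DMSO libraries, so their values are given side by side only.

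**Figure D4:**
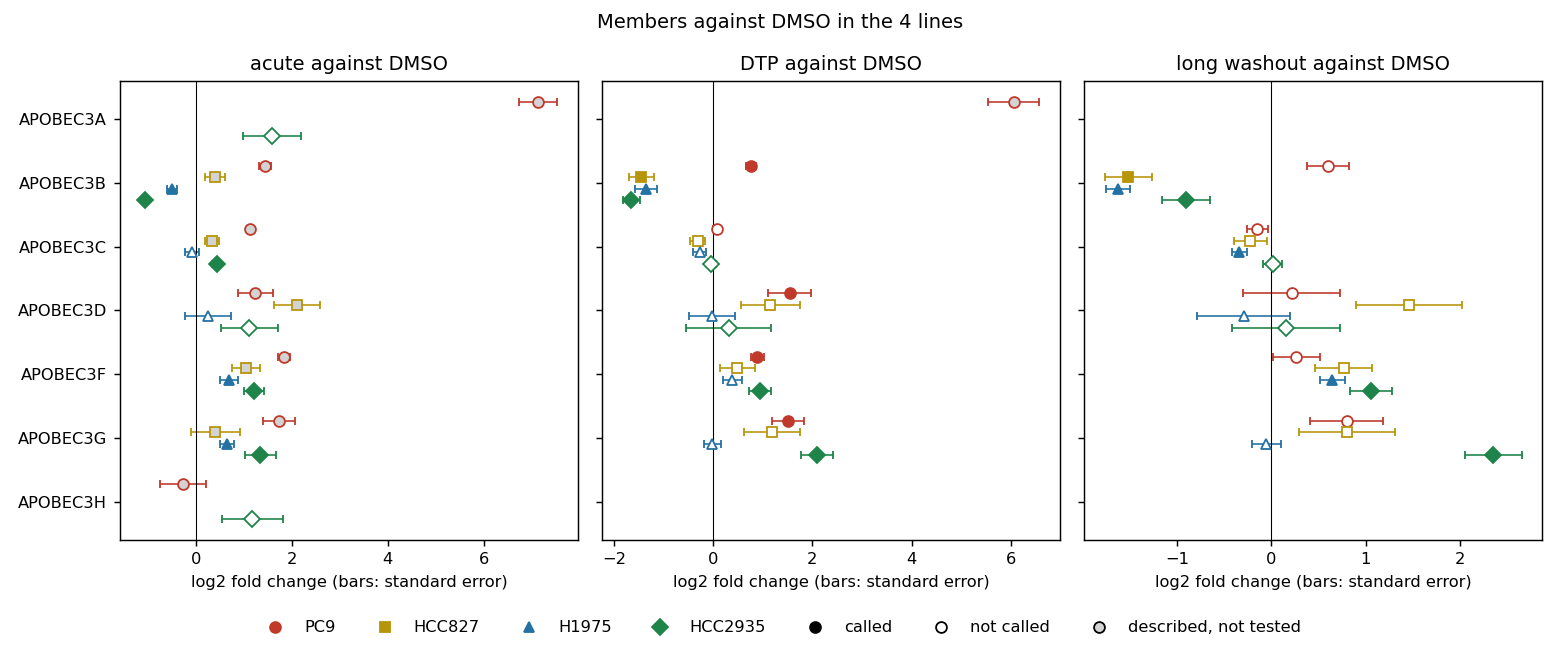
Log2 fold change against DMSO (x axis) with its SE (bars) for each tested member in the acute, DTP and long washout arms, with a marker for each line. Filled markers were called at an adjusted p under 0.05, open ones were not, and grey ones are descriptions without a test. The open APOBEC3A and APOBEC3H markers of HCC2935 in the acute arm are descriptions too. APOBEC3A of PC9 lies far to the right at 7.13 and 6.06, and APOBEC3B lies to the left in DTPs of all lines but PC9.

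Against the DTP arm, washout moved few members. Of the 5 or 6 members tested per line, none was called after the short washout in HCC827, H1975 or HCC2935, or after the long washout in any line. In HCC827 the short washout called 0% of genes by edgeR (0 of 14009, with 197 at an unadjusted p under 0.05, and 0 by DESeq2 and limma). In H1975 it also called 0% (0 of 14665, with 1950 at an unadjusted p under 0.05, 399 by DESeq2 and 0 by limma). The share was 3.52% in HCC2935 (2.47% higher, 1.04% lower). In H1975, where libraries with the same replicate number deviated together, the fit with the replicate block called 1697 genes, among them APOBEC3B (log2 fold change 0.55, adjusted p = 0.00862) and APOBEC3G (-0.44, adjusted p = 0.0434). Long washout called 17.3% of genes in PC9, 0% in HCC827 (0 of 14053, with 434 at an unadjusted p under 0.05, 7 by DESeq2 and 0 by limma), 0.0136% in H1975 and 5.16% in HCC2935. PC9 values of APOBEC3D (log2 fold change -1.35, adjusted p = 0.0945), APOBEC3F (-0.64, 0.0904) and APOBEC3G (-0.73, 0.0831) passed the threshold without long washout replicate 3 (-1.90, -0.94 and -0.84, adjusted p = 0.0148, 0.00234 and 0.0423). A test of whether the short washout change differed between the 4 lines called 0.0248% of genes and 0 of 6 members. APOBEC3A, at or near the counting limit in HCC827 and H1975, passed the filter of that test through PC9, and nothing is read from it.

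By composition, the family shifted away from APOBEC3B in every line but PC9. The APOBEC3B share of the summed TPM went from 64.2% under DMSO to 34.0% in the acute arm and 29.9% in DTPs of HCC2935, where APOBEC3F rose from 7.06% to 20.03% and APOBEC3G from 1.97% to 12.2%. In H1975 the APOBEC3B share went from 37.7% to 26.9% and 20.4%, and in HCC827 from 54.9% to 52.1% and 31.6%. In PC9 it was 61.2%, 62.1% and 67.4%. The summed level went from 155 to 414 and 288 TPM in PC9, from 43.8 to 64.2 and 28.5 TPM in HCC827, from 86.4 to 87.2 and 62.1 TPM in H1975, and from 122 to 112 and 94.4 TPM in HCC2935. TPM scaling itself moved the median of all genes by 0.27 in PC9 and 0.17 in HCC2935 between DMSO and DTP on the log2 scale, and by 0.15 between DMSO and long washout in PC9, which is why changes of single members are given in CPM.

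Interferon-stimulated genes, a class that responds to interferon as APOBEC3A can, were mostly called higher in drug-treated PC9, and in DTPs of H1975 more were called lower than higher. In PC9, 21 of 26 tested were higher and 1 lower in the acute arm, and 29 of 32 were higher in DTPs (median log2 fold change 2.74, against 0.02 over all genes). The DMSO libraries were the same in both. Genes that passed the filter on low counts only through the DTP libraries, where they are high, raise the DTP count and median, which are descriptions. For all lists, the median over all genes lay between -0.00 and 0.03 in the acute and DTP comparisons with DMSO. Of all genes, 34.4%, 20.2%, 21.2% and 22% were called higher in the acute arm of PC9, HCC827, H1975 and HCC2935. In the same order 34.1%, 22.1%, 23.7% and 25.1% were called lower. In DTPs 35.4%, 19.4%, 22.4% and 25.3% were called higher and 35.9%, 17.2%, 23.4% and 27.2% lower. The PC9 short washout called 12.1% higher and 10.1% lower. In HCC827, 18 of 32 were higher and 1 lower in the acute arm, and 17 of 31 were higher and 1 lower in DTPs, while APOBEC3A was near its counting limit. In H1975, 14 of 32 were higher and 1 lower in the acute arm (median 0.56), and 4 were higher and 15 lower in DTPs (median -0.86), with CMPK2 at -4.74 and TRIM22, an antiviral ubiquitin ligase, at 1.74. In HCC2935, 8 of 32 were higher and 1 lower in the acute arm, and 6 were higher and 7 lower in DTPs, with OAS3, an oligoadenylate synthetase, at -1.80. Among 20 genes of the NF-kB axis, 11 of 17 tested rose and 2 fell in the PC9 acute arm, and 1 of 18 rose and 9 fell in that of HCC2935, with the chemokine gene CXCL8 at -3.21. H1975 had 2 of 18 higher and 3 lower, and HCC827 10 of 19 higher and 1 lower. In the PC9 short washout 8 of 18 NF-kB genes rose and none fell, including TRAF1 (1.38) and BIRC3 (1.22).

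Most of the 16 DREAM and E2F regulators were called lower in drug-treated cells. In the acute arm 13 of 16 were lower and 2 higher in PC9, 11 lower and none higher in HCC827, 13 lower and 1 higher in H1975, and 12 lower and 2 higher in HCC2935. In DTPs 12 were lower and 1 higher in PC9, 9 and none in HCC827, 11 and 1 in H1975, and 12 and none in HCC2935. In HCC2935, MYBL2 fell by 3.17 and E2F2 by 3.04 at 24 h, while RBL2, the p130 pocket protein of DREAM, rose by 0.56 on the log2 scale. The 12 proliferation markers were all lower in DTPs of every line. They were all higher again in the PC9 long washout than in DTPs (11.8% of all genes higher), and 10 of 12 in that of HCC2935 (2.99%). HCC827 and H1975 had no such rise. Their mean log2(CPM + 1) over these markers in HCC827 was 6.17 to 6.47 after the long washout. HCC827 DTPs held 5.96 to 6.57 and its DMSO libraries 7.65 to 7.88. In H1975 the long washout libraries held 5.84 to 6.25, the DTPs 5.65 to 6.84 and the DMSO libraries 7.96 to 8.13.

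Of 12 genes that excise uracil or repair the resulting lesion, 6 were lower and 1 higher in the PC9 acute arm. The counts were 4 and 2 in HCC827, 5 and 0 in H1975, and 4 and 1 in HCC2935. Of all genes, 34.1%, 22.1%, 23.7% and 25.1% were lower in these 4 lines. UNG fell by 1.16 (SE 0.10, adjusted p = 0.000142) in H1975 and by 1.32 (SE 0.11, adjusted p = 1.11e-05) in HCC2935. DUT, the dUTPase that keeps uracil out of new DNA, fell by 1.02 and 1.16. In DTPs 7 of 12 repair genes were lower in PC9, 6 of 11 in HCC827, 5 of 12 in H1975 and 6 of 12 in HCC2935. The shares over all genes were 35.9%, 17.2%, 23.4% and 27.2%. TDG rose in H1975 DTPs by 0.68. Among the other AID/APOBEC genes only APOBEC2, a muscle relative with no known deaminase activity, was tested. It rose in the HCC2935 acute arm (2.24, SE 0.58, adjusted p = 0.0104) and in H1975 DTPs (1.36, SE 0.44, adjusted p = 0.0333).

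Of 7 neighbours of the cluster on chromosome 22, 7 were higher in the PC9 acute arm (median 1.14), where 34.4% of all genes were. The count was 4 in HCC827 (20.2% of all genes), 5 in H1975 (21.2%) and 5 in HCC2935 (22%), with 1 lower in each of the last 2. In PC9 the neighbours' median lay close to the change of APOBEC3C, below those of APOBEC3A, B, D, F and G and above that of APOBEC3H. Epithelial differentiation genes rose in the PC9 acute arm (11 of 14, none lower) and fell in that of HCC2935 (10 of 17, 1 higher), where SPRR1B, a cornified envelope protein, fell by 3.61. In the PC9 short washout 5 of 15 were lower and none higher. Of the marker lists, epithelial markers had 7 of 8 higher and 1 lower in the PC9 acute arm and 6 of 8 lower in DTPs of HCC827 and HCC2935. Fibroblast markers (7 genes) had 4 of 4 tested higher in HCC827 DTPs and 4 of 6 in H1975 DTPs, where 19.4% and 22.4% of all genes were. In HCC827, 6 of the 7 had a mean under 1 TPM under DMSO, against 3 in DTPs. The filter on low counts thus kept those that are high in DTPs, and nothing is read from the HCC827 count. Leukocyte markers had 3 of 4 higher in the PC9 acute arm and none of 2, 1 of 8 and none of 3 in HCC827, H1975 and HCC2935. The part of these changes in the values of the members was not tested.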

How the data were processed

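RNA from 60 libraries (4 lines, 5 arms, 3 biological replicates, grouped by the sample titles) was prepared with an Illumina TruSeq mRNA kit and sequenced as 150-base read pairs. The submitters' processing notes name HISAT2 2.1.0, Salmon 0.8.2 and hg38, without saying what each did, and strand use and the annotation are not given in the sources used here. The authors deposited estimated counts, not normalized, and log2 TPM with 0.01 added, of 19712 genes. Counts were rounded and tested with edgeR 4.0.16 (R 4.3.3, TMM, its default filter on low counts, quasi-likelihood test, Benjamini-Hochberg adjustment over all genes tested), separately for each of 24 pairs of arms within a line. CPM used TMM over all libraries. Changes in differences between lines were tested as interactions.

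The alternatives were DESeq2 1.42.0, RLE size factors, omitting the filter or raising it to 10 counts in all libraries tested, limma 3.58.1 on the log2 TPM values, the replicate number as a block, all 15 libraries of a line (or all 60), APOBEC3A and APOBEC3B summed, a threshold of 0.01, and each replicate left out. Replicate numbers were read as pairs where the deviations of all 3 pairs correlated above 0.1, which held in 3 of 24 comparisons: the short washout against DTP in H1975 (lowest r 0.25) and HCC827 (0.40) and the acute arm against DMSO in HCC2935 (0.13). Squared differences between replicates were on average 8.97 to 137 times those that counting error alone gives, so none was a copy. Gene positions are from GENCODE in hg38.

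The members, the named genes and the lists (interferon-stimulated genes, NF-kB axis, DREAM and E2F regulators, uracil excision and base repair, other AID/APOBEC genes, chromosome 22 neighbours, ERK feedback, proliferation, epithelial differentiation, and epithelial, leukocyte and fibroblast markers) were chosen with earlier results of these data known. All members are named. Of each list at most the 2 highest and 2 lowest called genes are named, outside the acute comparison of PC9 and HCC827, and the 5 genes most like APOBEC3A and APOBEC3B by correlation of group means. No p is given for the acute comparison in PC9 and HCC827, or for APOBEC3A in those lines where DMSO or acute libraries enter. The same holds for APOBEC3A and APOBEC3H in HCC2935 where acute libraries enter, and for APOBEC3A in the PC9 long washout against DTPs. The edgeR and limma fits were tested on simulated counts with known changes.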

Additional observations from a re-analysis of the deposited data

Results flagged for a closer look

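The response of APOBEC3B to 24 h of osimertinib differed between H1975 and HCC2935, falling more in the latter (difference of log2 fold changes -0.66, SE 0.12, adjusted p = 0.00437, edgeR interaction test). Every acute library lay below every DMSO library in both lines. The difference was called for 12.9% of all genes. For APOBEC3B it was not called when all 60 libraries shared the estimate of the spread (adjusted p = 0.236, edgeR). Nor was the H1975 fall itself with all 15 libraries of that line (adjusted p = 0.113).

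The change of APOBEC3B from DMSO to the drug-tolerant state differed between the 4 lines (adjusted p = 2.69e-06), with a rise in PC9 and falls in HCC827, H1975 and HCC2935. That of APOBEC3G differed too (adjusted p = 0.00432), with a rise in PC9 and HCC2935, while H1975 DTPs held 13.3 to 18.2 CPM and its DMSO libraries 13.4 to 17.7 CPM. Both tests were added after the data had been seen, and 61.6% of all genes were called in this comparison of the 4 lines.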

How the results depend on the processing

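Over 89 member results, 708 of 747 values under other settings and 652 of 678 with a replicate left out kept their direction and their side of the threshold. The exception in direction was the APOBEC3A difference between HCC2935 and H1975 in the acute change. It ranged from -1.26 (without H1975 DMSO replicate 2) to 1.55 with a replicate left out. This is a description, because APOBEC3A passed the filter on low counts there through the HCC2935 acute libraries (34.5 to 49.6 counts). The H1975 DMSO and acute libraries held 5.34 counts or fewer. The cause of the changes below was not tested.

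Counts of called members moved as follows. At a threshold of 0.01, HCC827 acute against DMSO went from 2 to 1, H1975 DTP against acute from 2 to 0, HCC2935 DTP against acute from 4 to 2 and PC9 short washout against DTP from 1 to 0. With at least 10 counts per library, HCC827 acute went to 1 and the DMSO difference between lines from 5 to 3. With limma, HCC2935 DTP against acute went to 2, HCC827 long washout against DMSO from 1 to 3 and the DTP difference between lines from 3 to 5. The main counts of HCC2935 DTP against acute and of the DTP difference between lines include APOBEC3A as a description. With DESeq2, PC9 long washout went from 0 to 3 against DTP and from 0 to 1 against DMSO, and HCC827 long washout against DMSO to 2. With all 15 libraries of the line, PC9 short washout went to 0, PC9 long washout to 4 against DTP and 3 against DMSO, and HCC827 long washout to 3. Summing APOBEC3A and APOBEC3B took PC9 short washout to 0. The replicate block moved HCC827 acute to 1 and H1975 short washout from 0 to 2. It also changed 1 call in each of HCC2935 acute (APOBEC3A, as a description) and H1975 acute (APOBEC3F, adjusted p = 0.0524).

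With a replicate left out, counts ranged from 1 to 2 (HCC827 acute), 4 to 6 (HCC2935 acute), 0 to 2 (H1975 DTP against acute), 1 to 2 (H1975 DTP against DMSO, PC9 short washout and the acute difference of HCC2935 and H1975), 0 to 6 (PC9 long washout against DTP), 0 to 2 (against DMSO) and 1 to 3 (HCC827 long washout against DMSO). The highest counts of HCC2935 acute and of PC9 long washout against DTP include APOBEC3A as a description, and that of HCC2935 acute also APOBEC3H. Over all genes, calls in the PC9 short washout went from 3221 to 880 with all 15 libraries and 2023 with the block, in that of HCC2935 from 503 to 1163 with DESeq2 and 244 with the block, and in that of H1975 to 9 with all 15 libraries. Long washout against DTP went from 2496 to 4226 with DESeq2 and 5532 with all 15 libraries in PC9, from 745 to 1702, 1758 and, with the block, 38 in HCC2935, and from 2 to 72 with DESeq2, 0 with limma and 1 with all 15 libraries in H1975. PC9 long washout against DMSO went from 4278 to 6672. The block called 2 genes in the HCC827 short washout. The short washout difference between lines went from 4 to 343 (DESeq2), 17 (at least 10 counts), 19 (limma), 171 (block) and 2 (all 60 libraries). Depth limits APOBEC3A in HCC827 and H1975, and APOBEC3H throughout.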

Other observations

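Across the 20 group means, centred within each line, APOBEC3A ran most like APOBEC3F (Pearson r = 0.74) and APOBEC3C (0.74) among the members, and less like APOBEC3B (0.41). APOBEC3B and APOBEC3F had an r of 0.06, APOBEC3B and APOBEC3G of -0.22, and APOBEC3F and APOBEC3G of 0.69. These are descriptions over 20 means that share lines and control arms. APOBEC3A means ran from 0.108 to 16.1 CPM in PC9 and reached 1.99 CPM in HCC2935, but no more than 0.396 CPM in HCC827 and H1975. The r values of APOBEC3A thus rest mostly on PC9, and the acute arm that chose the family is among its means.

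Of 13806 genes averaging 1 CPM or more, those whose pattern was most like that of APOBEC3A on the same 20 means were VSIG2 (r = 0.96), ATP6V1C2 (0.93), HSD17B1 (0.93), BCAS1 (0.92) and CALCOCO2 (0.92). The limit given above for APOBEC3A applies to these r values too. For APOBEC3B the most alike were ZNF75A (0.90), ABHD11 (0.90), DTX2 (0.89), MYO5B (0.89) and ZDHHC12 (0.88).

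Of the counts assigned to APOBEC3A and APOBEC3B together, APOBEC3A took 4.62% to 4.99% in the PC9 acute libraries, 2.95% to 4.66% in PC9 DTPs and 1.09% to 1.95% after the PC9 short washout. In the HCC2935 acute arm, where APOBEC3B fell, APOBEC3A took 4.15% to 6.15%, against 0.402% to 1.82% under DMSO.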
